A study of Mus musculus with 3 samples.

Results

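Horizontal cells are inhibitory neurons that contact rod and cone terminals in the outer retina and shape their output. This account compares 2 sets of mouse horizontal cells that differ in captured transcripts of Vax2 and of Rassf8, Shox2 and Siah3. Set A, the Vax2-negative Rassf8-type cells, had 0 Vax2 unique molecular identifiers (UMIs, each 1 captured molecule) and at least 100 UMIs of Rassf8, Shox2 and Siah3 together per 1000000 UMIs of the cell. Set B, the Vax2-positive cells, had at least 1 Vax2 UMI and a summed level under 100 on that scale. Barcodes counted as horizontal cells with at least 1000 detected genes, at most 10% mitochondrial UMIs and UMIs of at least 2 of Lhx1, Onecut1 and Onecut2. Of 20048 barcodes, 15055 passed this rule, of which 4033 fell in set A and 4347 in set B. A further 410 cells passed both gates and 6265 passed neither. The cells came from 3 droplet libraries of sorted retinal cells at postnatal day 6 (P6), P8 and P11, 1 library per age. All libraries came from Cx57icre;Ai14 mice, in which Cre under control of connexin 57 turns on a red fluorescent reporter in horizontal cells. There was no other genotype and no treatment, and the sources used here do not give the number and sex of the animals behind a library.

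Vax2 encodes a homeodomain transcription factor known for its expression in the ventral optic cup and retina, where it takes part in setting the dorsoventral axis. The dorsal retina is known for T-box factors such as Tbx5, for bone morphogenetic protein signalling and for the ephrin-B ligands, which meet EphB receptors of the ventral side. Shox2 encodes another homeodomain factor, Rassf8 a Ras-association domain protein and Siah3 a member of the Siah family of ubiquitin ligases. The labels give no retinal position for any cell, so position was not measured here.

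The 4 genes that chose the sets are described without a test. Vax2 had 0 UMIs in set A by construction and stood at 114, 72.1 and 68.3 counts per 1000000 summed UMIs (CPM) in set B at P6, P8 and P11. Rassf8 stood at 117, 106 and 133 CPM in set A and at 6.73, 6.25 and 10.8 CPM in set B. Shox2 was at 63.0, 68.5 and 49.9 CPM in set A and at 2.04, 2.21 and 2.499 CPM in set B, and Siah3 at 56.6, 39.0 and 61.2 against 2.43, 3.67 and 8.66 CPM. The gate rests on few molecules per cell. At P6, P8 and P11, 62.9%, 62.6% and 59.0% of set B cells held a single Vax2 UMI, and 55.6%, 34.7% and 24.1% of set A cells had UMIs of 1 of the 3 summed genes and not of the other 2. A count of 0 Vax2 UMIs does not show that a cell lacked the transcript. When cells were gated on Rassf8, Shox2 and Siah3 alone, Vax2 stood at 11.5, 5.03 and 5.76 CPM in the cells above the limit and at 51.3, 32.1 and 33.9 CPM below it. Barcodes that passed the quality limits with UMIs of 0 of the 3 horizontal cell genes, 197, 63 and 111 in number, held Vax2 at 34.6, 31.4 and 34.8 CPM and Rassf8 at 67.5, 62.8 and 55.2 CPM. Their median depth was 2314, 3018 and 3463 UMIs, and the part of free RNA in the gated counts was not tested.

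**Figure D1:**
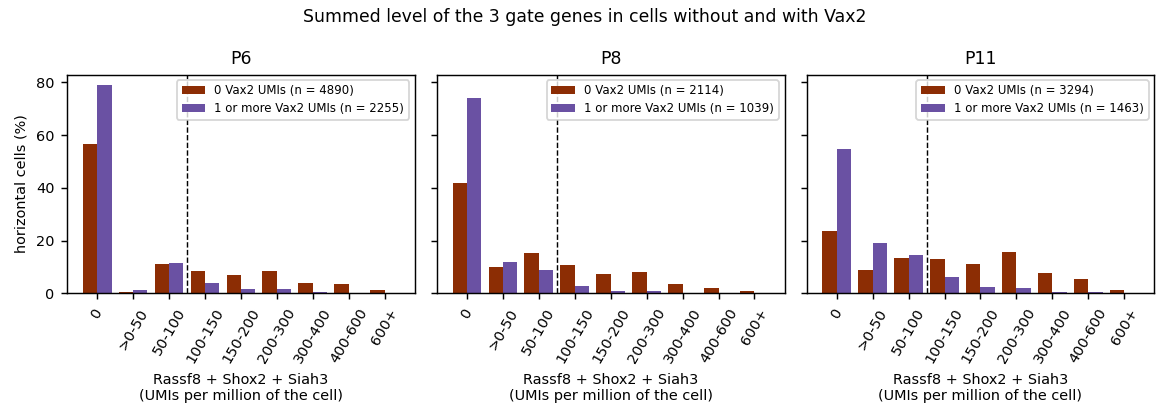
Horizontal cells by the summed level of Rassf8, Shox2 and Siah3 (x axis, UMIs per 1000000 UMIs of the cell) as a share of cells (y axis, %), for cells without and with a Vax2 UMI in each library. The dashed line marks the limit of 100, and the bars beyond it hold more of the cells without Vax2 in each library, with no gap in the distribution at the limit.

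Set A held 1562 of the 7145 P6 horizontal cells (21.9%, exact binomial 95% interval 20.9 to 22.8%), 685 of 3153 at P8 (21.7%, 20.3 to 23.2%) and 1786 of 4757 at P11 (37.5%, 36.2 to 38.9%). Set B held 2071 (29.0%, 27.9 to 30.1%), 987 (31.3%, 29.7 to 33.0%) and 1289 cells (27.1%, 25.8 to 28.4%). Median depth was 12077.5, 20605 and 22194 UMIs in set A and 13642, 21334 and 22782 UMIs in set B. A shallower cell reaches the limit with fewer UMIs of the summed genes, so in UMIs the gate was looser at P6 than later. After each cell was thinned to 5000 UMIs, which left 6214, 3004 and 4587 cells, set A made up 21.7%, 21.2% and 34.1%. Set B then made up 15.9%, 10.5% and 8.79%. Intervals cover counting error only, and ages were not tested against each other, since each had 1 library.

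Lhx1, a LIM homeodomain factor of this lineage and 1 of the 3 genes that chose the cells of both sets, stood at 680, 858 and 787 CPM in set A and at 726, 810 and 794 CPM in set B. Of the horizontal cell genes that the rule did not use, Prox1 (log2 ratio of set A over set B -0.12 ± 0.04, adjusted p = 0.064), Calb1 (0.08 ± 0.04, 0.33) and Gja10, the connexin 57 gene (0.01 ± 0.06, 0.97), did not pass the test. Here and below, ratios and their standard errors come from edgeR's quasi-likelihood test on counts summed per library and set, over 3 libraries with library as a block, and p-values carry the Benjamini-Hochberg adjustment over 13952 genes. Mgarp, which climbs steeply with age in these cells, was lower in set A (132, 2173 and 5293 against 163, 2866 and 5507 CPM, log2 ratio -0.27 ± 0.05, adjusted p = 0.0079), a call lost without P6 (-0.24).

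Of the 13952 genes tested outside the 4 gate genes, 917 (6.57%) differed at an adjusted p under 0.05, of which 556 (3.99%) were higher in set A and 361 (2.59%) lower. Most differences were small. At least 1.5-fold apart were 127 of the higher and 36 of the lower genes, and at least 2-fold apart were 48 and 16. In 545 of the 556 and 348 of the 361 genes the direction was the same in all 3 libraries. The median log2 ratio of all genes tested was -0.0061. Since cells were chosen by transcripts from the same counts, these calls describe what went with the gate, and the blocks are libraries of 3 ages, so the p-values measure how alike the ratio was at P6, P8 and P11. No library was repeated at an age.

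Among genes of at least 20 CPM, Fmnl2, Filip1l and Lrrc7 had the highest ratios. Fmnl2, a formin that elongates actin filaments, had 81.1, 21.9 and 13.5 CPM in set A and 24.4, 2.49 and 2.17 CPM in set B at P6, P8 and P11. Its log2 ratio was 2.08 ± 0.14 (adjusted p = 5.1e-07), and without the P6 library it was 2.86. The level fell with age in both sets, and the P11 value of set A was below the P6 value of set B. Filip1l, which codes for a filamin-interacting protein, had 1139, 443 and 46.2 CPM in set A against 491, 68.8 and 11.2 CPM in set B (1.87 ± 0.18, adjusted p = 8.9e-06). Its ratio was larger at P8 (2.69) and P11 (2.04) than at P6 (1.22), a difference with no test. Lrrc7, a scaffold of the postsynaptic density also called densin, had 146, 44.1 and 20.9 against 52.3, 8.18 and 4.10 CPM (1.81 ± 0.12, adjusted p = 3.5e-07). In the barcodes with UMIs of 0 of the 3 horizontal cell genes, Fmnl2 stood at 191, 35.9 and 113 CPM, above set A at each age. Filip1l stood there at 246, 71.8 and 131 CPM and Lrrc7 at 58.3, 22.4 and 55.2 CPM, above set A at P11 only. The part of other cells and of free RNA in these 3 genes was not tested.

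Inpp4b, a phosphoinositide phosphatase, stood at 66.5, 13.3 and 11.5 CPM in set A and 25.4, 3.71 and 4.53 CPM in set B (1.43 ± 0.07). Cpne4, a copine that binds membranes in a calcium-dependent way, stood at 85.7, 40.7 and 39.0 against 36.0, 12.5 and 16.7 CPM (1.33 ± 0.07). Pex5l, whose product is also called TRIP8b, stood at 63.0, 24.5 and 28.7 against 21.8, 9.07 and 13.2 CPM (1.35 ± 0.07). In each of these genes set A was above set B in every library.

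Sparcl1, a secreted protein also called hevin and known for promoting synapse formation, was the most abundant of the 15 genes with the highest ratios at P8 and P11. It stood at 623, 652 and 419 CPM in set A and 359, 301 and 199 CPM in set B (0.98 ± 0.05, adjusted p = 2.1e-08), and every set A value lay above every set B value. Gap43, a growth cone protein, stood at 329, 213 and 62.8 against 212, 118 and 30.8 CPM (0.79 ± 0.06). Gria1, Csgalnact1, Cdh12, Lnx1, Lrguk, Trerf1 and Akap12 completed the 15, with log2 ratios from 0.79 to 1.08.

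The genes with the lowest ratios differed less. Fbxl7, an F-box protein gene, had the lowest at -0.69 ± 0.06 (48.8, 23.4 and 24.6 CPM in set A, 76.8, 30.4 and 45.2 CPM in set B). Maged1, a MAGE-family adaptor, was abundant and climbed with age in both sets, from 1286 through 2014 to 3166 CPM in set A and from 1935 through 3308 to 4760 CPM in set B (-0.65 ± 0.04, adjusted p = 9.8e-08). Its ratio was -0.59, -0.72 and -0.59 at the 3 ages. Frem1, an extracellular matrix protein gene, stood at 37.1, 15.8 and 15.5 against 54.2, 20.02 and 29.7 CPM (-0.67 ± 0.08). Angpt2, a secreted ligand of the Tie2 receptor, stood at 238, 153 and 118 against 357, 218 and 169 CPM (-0.56 ± 0.04, adjusted p = 2.3e-07). Lyn, Shisa8, Shmt2, Cdo1, Ly6e, Lrrc3b, Scml4, Them6 and Rhoc had log2 ratios from -0.56 to -0.39.

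**Figure D2:**
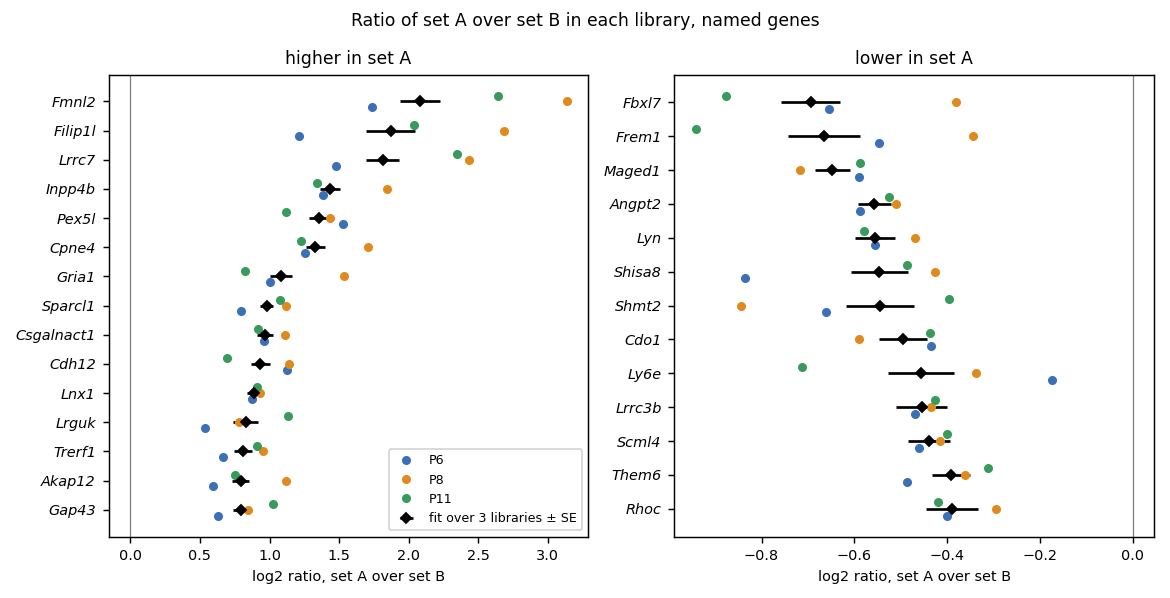
Log2 ratio of set A over set B (x axis) in each library (circles) and in the fit over 3 libraries (diamonds, bars are the standard error) for the 15 genes with the highest ratio and 13 of the 15 with the lowest among called genes of at least 20 CPM. Every circle lies on the same side of 0 as its diamond, and Fmnl2, Filip1l and Lrrc7 lie farther from 0 at P8 and P11 than at P6.

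Some genes below 20 CPM differed more, and these are named after their values were seen. Chrm2, which codes for the M2 muscarinic acetylcholine receptor, had the lowest adjusted p of all genes tested (1.1e-10). It stood at 34.2, 15.03 and 6.86 CPM in set A and at 3.01, 0.893 and 0.600 CPM in set B, a log2 ratio of 3.61 ± 0.12. Its UMIs lay in 374 of 1562 set A cells at P6, 150 of 685 at P8 and 178 of 1786 at P11, and in 68 of 2071, 16 of 987 and 13 of 1289 set B cells, with no cell above 8 UMIs. Etv1, an ETS-family transcription factor gene, stood at 10.3, 10.3 and 8.24 against 1.83, 1.83 and 0.933 CPM (2.68 ± 0.14). Tigar, a fructose bisphosphatase gene, stood at 15.9, 15.5 and 14.8 against 5.15, 4.42 and 4.83 CPM (1.66 ± 0.08), with little change over the ages in either set. Mafa (2.06 ± 0.18), Pld5 (1.61 ± 0.09) and Sgcz (1.25 ± 0.08) were also higher.

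Among scarce genes that were lower in set A, Gsg1l, an auxiliary protein of AMPA receptors, stood at 10.1, 1.40 and 0.260 CPM in set A and 30.1, 4.23 and 1.03 CPM in set B (-1.61 ± 0.12, adjusted p = 6.1e-07). Drd2, the D2 dopamine receptor gene, had 16, 2 and 4 UMIs in set A and 147, 15 and 5 in set B (-2.23 ± 0.36, adjusted p = 0.0013), so its difference rests mostly on P6. Pde11a, a cyclic nucleotide phosphodiesterase gene, stood at 10.7, 5.08 and 6.19 against 20.3, 11.0 and 14.3 CPM (-1.09 ± 0.08). Kcnk13, a potassium channel gene, fell by 1.31 on the log2 scale (adjusted p = 1.7e-05), a call lost without the P6 library, where the value was -1.33.

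Cells of neither gate were read as well. For Chrm2, cells of neither gate held 11.7, 5.43 and 1.97 CPM, and for Filip1l they held 691, 203 and 24.2 CPM, between the set A and set B values of the same library. Within cells with 0 Vax2 UMIs, Chrm2 climbed over ranges of the summed gate genes. It went from 8.94 CPM at a sum of 0 through 20.4, 27.3 and 36.1 to 61.2 CPM at 400 or more (per 1000000 UMIs) at P6, from 3.51 to 30.9 CPM at P8 and from 1.002 to 15.5 CPM at P11. Just under the limit, at 80 to under 100, Chrm2 stood at 13.6, 9.12 and 2.48 CPM and just above it, at 100 to under 120, at 22.6, 11.2 and 3.60 CPM. Filip1l stood at 814, 329 and 38.9 CPM just under and at 1039, 395 and 41.6 CPM just above the limit. Median depth was 11558, 21554 and 22401 UMIs in the cells just under the limit and 9854, 19220 and 19527 UMIs in those just above it. A shallower cell reaches the limit with fewer UMIs, so these ranges also differ in depth. These values describe the gate and were not tested.

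**Figure D3:**
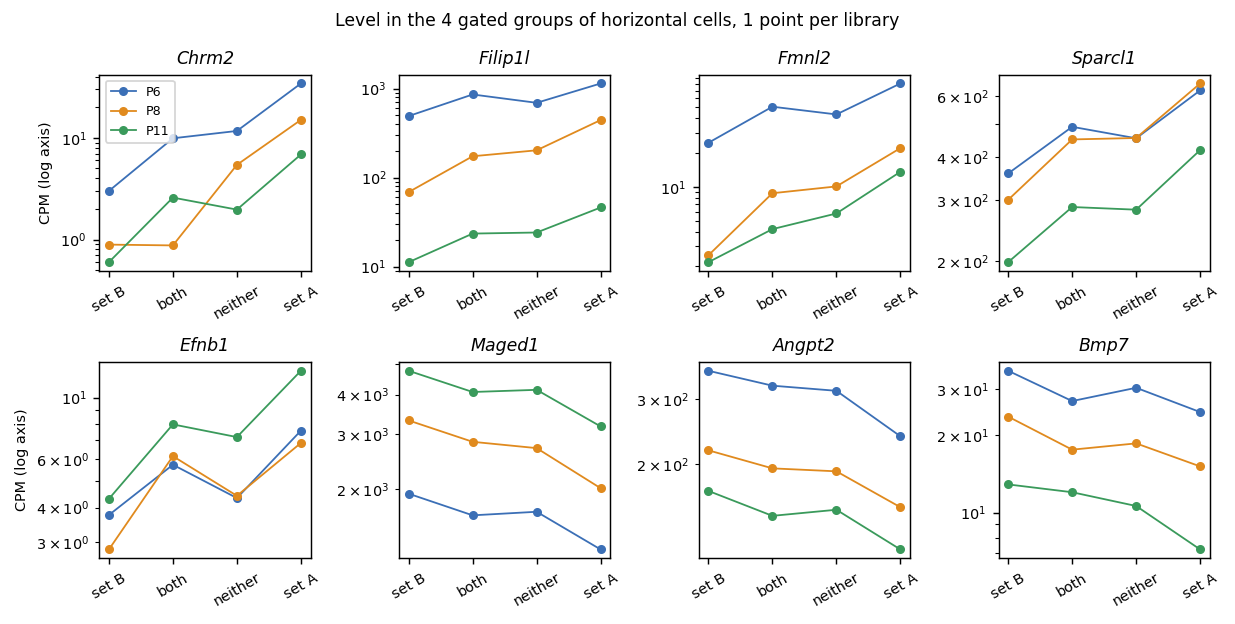
Level of 8 genes (y axis, CPM, log scale) in set B, cells passing both gates, cells passing neither and set A, with 1 line per library. For Filip1l, Sparcl1 and Maged1 the values of cells passing both gates or neither lie between those of sets A and B in each library.

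**Figure D4:**
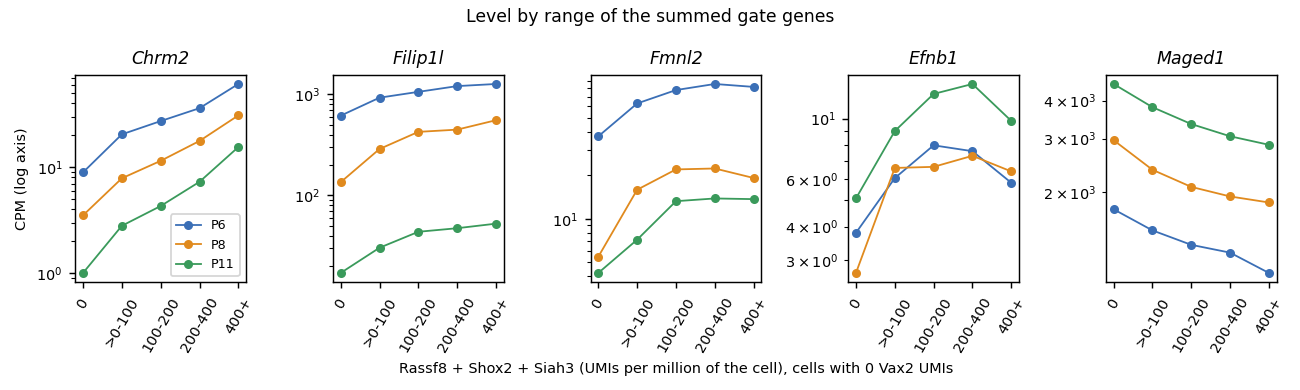
Level of 5 genes (y axis, CPM, log scale) in cells with 0 Vax2 UMIs by range of the summed level of Rassf8, Shox2 and Siah3 (x axis, UMIs per 1000000 UMIs of the cell), with 1 line per library. Chrm2 and Filip1l climb and Maged1 falls over the 5 ranges in each library, while Efnb1 is lower in the last range than in the one before it.

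Of 9 genes listed for dorsal expression in the retina, 5 were tested. Efnb1 and Tbx5 were called higher in set A, where 3.99% of all genes tested were higher. Tbx5, a T-box transcription factor gene of the dorsal retina, had 12, 17 and 46 UMIs in set A and 1, 0 and 5 UMIs in set B (3.67 ± 0.52, adjusted p = 4.7e-04). It passed the filter on low counts through its set A sums alone, so its call supports nothing about the list. Set A had more Tbx5 in each library, in 12, 15 and 41 cells, and DESeq2 gave it no adjusted p at these counts. Without the P11 library its ratio was 5.12. Efnb1, which codes for the ligand ephrin-B1, stood at 7.59, 6.85 and 12.5 CPM in set A and 3.76, 2.82 and 4.30 CPM in set B (1.31 ± 0.12, adjusted p = 6.1e-06), with every set A value above every set B value. Bmp4 (2.64, 12.6 and 39.0 against 1.93, 14.7 and 30.3 CPM, 0.21 ± 0.10, adjusted p = 0.23), Efnb2 (0.16 ± 0.05, 0.10) and Bambi (0.18 ± 0.25, 0.75) did not pass the test. Tbx2, Tbx3, Aldh1a1 and Cyp1b1 had too few UMIs to be tested.

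Of the 9 listed ventral genes only Ephb2, an ephrin-B receptor gene, was tested, and its levels were 59.6, 17.4 and 15.5 CPM in set A and 49.9, 16.4 and 15.5 CPM in set B (0.13 ± 0.06, adjusted p = 0.23). Vax1, the closest relative of Vax2, had 0 UMIs in all 6 sums, and Aldh1a3, a retinoic acid synthesis gene, had 3 in each P8 sum and 0 in the others. In the list of nasal and temporal genes, Epha5 (0.23 ± 0.04) and Epha4 (0.21 ± 0.04) were higher in set A while Hmx1 (-0.15 ± 0.04) and Epha6 (-0.15 ± 0.04) were lower, out of 6 tested. The Hmx1 call was lost without P6 (-0.17), P8 (-0.13) or P11 (-0.13), and the Epha6 call without P6 (-0.17) or P11 (-0.10). Of 17 tested genes of bone morphogenetic protein and TGF-beta signalling 2 were higher and 1 was lower, against 3.99% and 2.59% of all genes. Bmp7, a secreted ligand, was lower in set A at 24.5, 15.1 and 7.20 against 35.4, 23.5 and 12.9 CPM (-0.66 ± 0.07, adjusted p = 2.5e-05). Tgfb2, another ligand, was higher at 11.3, 1.18 and 0.650 against 3.08, 0.282 and 0.600 CPM (1.54 ± 0.27), a call lost without the P6 library (0.83). Id2, a target of this pathway, was higher (0.31 ± 0.05).

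Promoter sequences were read because the gate holds homeodomain genes. RefSeq windows of 250 bases upstream of the start (build GRCm38.p6) were found for 11 of 18 genes higher in set A (the 15 above with Chrm2, Efnb1 and Tbx5) and 7 of the 15 lower genes. TAATTA, a core letter string of many homeodomain sites, was in 0 of these genes' windows on either strand, and in at least 1 window of 5.65% of all 27025 genes (4.84% of 32851 windows). AGGTGT, the core of T-box sites, was in 2 of the 11, Fmnl2 and Trerf1, in 0 of the 7, and in 13.6% of all genes (11.8% of windows). The windows of Chrm2 (chr6:36387834-36388083), Fmnl2 (chr2:52857618-52857867) and Efnb1 (chrX:99135811-99136060), all on the plus strand, are printed 5′ to 3′ as the gene with the lowest adjusted p, a gene with AGGTGT and the dorsal ligand. Capitals mark AGGTGT. A match is a string of letters and not a measured site, and these counts are too small to set against the share of all genes.

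Chrm2: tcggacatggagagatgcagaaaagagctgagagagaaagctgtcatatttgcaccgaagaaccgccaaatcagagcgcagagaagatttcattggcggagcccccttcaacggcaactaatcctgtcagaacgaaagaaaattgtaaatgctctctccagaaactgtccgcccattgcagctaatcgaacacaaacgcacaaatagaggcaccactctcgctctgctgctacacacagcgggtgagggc

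Fmnl2: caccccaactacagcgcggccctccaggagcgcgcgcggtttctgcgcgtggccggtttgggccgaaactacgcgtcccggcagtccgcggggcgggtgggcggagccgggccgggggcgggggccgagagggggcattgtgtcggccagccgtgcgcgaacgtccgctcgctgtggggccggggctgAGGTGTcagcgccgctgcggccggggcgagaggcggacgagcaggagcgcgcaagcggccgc

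Efnb1: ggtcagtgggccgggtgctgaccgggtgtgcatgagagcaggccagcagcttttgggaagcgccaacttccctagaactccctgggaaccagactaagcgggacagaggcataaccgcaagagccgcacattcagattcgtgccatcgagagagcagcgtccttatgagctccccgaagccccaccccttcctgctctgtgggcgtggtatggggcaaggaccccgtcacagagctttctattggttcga

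Lists of synapse and neurite genes hold many long genes, and of the longest of 5 equal groups of genes by span 12.7% were higher and 2.58% lower, against 3.99% and 2.59% of all genes tested. Nuclear RNAs were higher in set A as well, so counts are also given with the sets matched on Malat1, a choice made after seeing the data. Of 39 tested synaptic adhesion genes 17 were higher and 1 lower, with a median log2 ratio of 0.18 against -0.0061 over all genes. In the longest group lay 26 of the 39 and 15 of the 17, and with matched sets 14 were higher and 1 lower. Nlgn1, the neuroligin 1 gene, stood at 321, 124 and 148 CPM in set A and 214, 60.2 and 89.1 CPM in set B (0.74 ± 0.06, adjusted p = 1.1e-06). Lrrtm4, a leucine-rich postsynaptic protein gene, stood at 343, 174 and 270 against 261, 112 and 199 CPM (0.47 ± 0.04), and Lrrc4c at 136, 91.6 and 111 against 102, 69.0 and 83.7 CPM (0.39 ± 0.04). Cntn3, a contactin gene, stood at 21.9, 7.66 and 4.45 against 11.1, 3.196 and 2.07 CPM (1.05 ± 0.10). Nrxn3, a neurexin gene, was higher by 0.27 ± 0.05. The 1 lower gene was Tenm3, a teneurin, at 5.29, 0.737 and 1.74 against 8.30, 3.24 and 5.70 CPM (-1.26 ± 0.20).

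Of 25 tested glutamate receptor genes 8 were higher and 1 was lower, against 3.99% and 2.59% of all genes tested. With sets matched on Malat1, 6 were higher and 1 lower. All 9 reported calls were in the longest group, which held 19 of the 25. Gria1, an AMPA receptor subunit, stood at 88.7, 20.9 and 4.32 CPM in set A and 44.3, 7.19 and 2.43 CPM in set B (1.08 ± 0.08, adjusted p = 1.0e-06). Gria2 was higher by 0.26 ± 0.04. Grm7, a metabotropic receptor, stood at 173, 48.3 and 57.7 against 120, 25.0006 and 39.9 CPM (0.61 ± 0.06), and Neto1, an auxiliary subunit of kainate receptors, at 62.4, 26.4 and 7.44 against 40.5, 13.3 and 3.60 CPM (0.77 ± 0.07). Grin2a, an NMDA receptor subunit, was the lower one at 5.34, 1.69 and 0.338 against 13.9, 3.99 and 3.57 CPM (-1.75 ± 0.24). At P11, 64 of its 107 set B UMIs lay in 5 cells.

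Of 26 tested guidance genes 7 were higher and 2 lower (5 and 2 with sets matched on Malat1), again against 3.99% and 2.59% of all genes tested. All 9 were in the longest group, which held 21 of the 26. Sema3a, a secreted repellent, stood at 14.2, 7.15 and 5.02 CPM in set A and 4.90, 1.64 and 2.10 CPM in set B (1.56 ± 0.14, adjusted p = 4.8e-06). The receptor genes Robo2 (917, 337 and 490 against 673, 196 and 336 CPM, 0.57 ± 0.05) and Unc5d (0.63 ± 0.07) were higher too. Of 22 cadherins and protocadherins, 17 of them in the longest group, 6 were higher and 3 lower (6 and 3 with matched sets), Cdh12 at 119, 63.6 and 126 against 54.8, 28.8 and 77.8 CPM (0.93 ± 0.07) and Pcdh17 at 52.9, 56.4 and 97.5 against 70.5, 78.3 and 114 CPM (-0.36 ± 0.05). Of 35 ion channel genes, 24 of them in the longest group, 6 were higher and 1 lower (4 and 1 with matched sets), with Kcnq5 (0.35 ± 0.04) and the calcium channel gene Cacna1d (0.31 ± 0.05) among the higher and Cacna2d2 (-0.52 ± 0.09) the lower.

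Of 15 tested genes of GABA synthesis, transport and reception 5 were higher and 1 lower, against 3.99% and 2.59% of all genes tested. The longest group by span held 8 of the 15, with 3 of them higher and 1 lower. Gabrg3, a GABA-A receptor subunit gene, had 78 UMIs in set B at P11, of which 58 lay in 6 cells. Its log2 ratio was -2.62 without P8 and -0.0708 without P11. Gad1, which makes GABA, stood at 48.1, 11.1 and 1.46 CPM in set A and 31.6, 4.42 and 0.467 CPM in set B (0.78 ± 0.11), falling with age in both, and at 1.37 without the P6 library. Gad2 (0.76 ± 0.19, adjusted p = 0.026) lost its call without P6 (0.99) or P8 (0.60). Among 15 ankyrin and spectrin genes, the family the series title names, 1 was higher and 0 lower, a share near the 6.57% of all genes tested. Ank3 stood at 578, 221 and 292 against 539, 189 and 267 CPM (0.13 ± 0.03, adjusted p = 0.031), a call lost without P6 (0.16) or P8 (0.11) and with sets matched on Malat1, and Ank2 at 1914, 1486 and 2209 against 2015, 1408 and 2046 CPM (0.02 ± 0.04, 0.79). Of 21 homeobox genes 2 were higher and 3 lower, with Cux2 at 0.28 ± 0.04 among the higher. Tfap2a, an AP-2 factor gene active in horizontal and amacrine cells, stood at 14.96, 12.9 and 20.2 against 8.98, 7.94 and 9.43 CPM (0.88 ± 0.09).

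Genes named in an earlier analysis of these libraries for falling or climbing with age were not independent of these data, and are described by count. Of 12 that fell with age 7 were higher in set A and 0 lower, led by Filip1l and Gria1. Over all genes tested, 3.99% were higher and 2.59% lower. The longest group by span, where 12.7% of genes were higher, held 6 of the 12 and 5 of the 7. With sets matched on Malat1, 7 were higher and 0 lower. Rgs4, a regulator of G-protein signalling, stood at 78.2, 23.9 and 4.29 against 52.2, 12.8 and 4.799 CPM (0.55 ± 0.10). Of 12 that climbed 2 were higher and 4 lower, among the lower Mgarp, Lynx1 (25.1, 86.8 and 261 against 29.3, 114 and 343 CPM, -0.38 ± 0.04) and Ly6e (-0.46 ± 0.07). Pyy, a neuropeptide gene of the first list, stood at 262, 19.7 and 0.468 against 210, 12.2 and 0.0666 CPM (0.40 ± 0.07). Without P6 the calls of Rgs4 (0.48) and Pyy (0.75) were lost.

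Neighbours of the gate genes within 500 kb were read from the annotation. Of 34 tested, 4 were higher and 2 lower, against 3.99% and 2.59% of all genes tested. Each of the called genes lay on the side of its gate gene. Near Rassf8 (chromosome 6, 145746748 to 145821079), Lmntd1 stood at 2.31, 2.65 and 3.51 CPM in set A and 0.358, 0.329 and 0.600 CPM in set B (2.67 ± 0.24) and Bhlhe41 at 17.3, 32.7 and 47.9 against 14.4, 27.6 and 37.1 CPM (0.30 ± 0.05). Lmntd1 reached the level of the filter on low counts in every set A sum but in set B at P11 only, so its call supports nothing about the neighbours. Rsrc1, which overlaps Shox2 on chromosome 3, stood at 115, 116 and 110 against 81.7, 76.9 and 81.1 CPM (0.49 ± 0.04). Near Siah3 the call was Zc3h13 (0.14 ± 0.04), lost without P6 (0.15) or P11 (0.14). Near Vax2 (chromosome 6, 83711264 to 83738313), Vax2os, an antisense gene that overlaps it, stood at 1.57, 0.663 and 0.338 against 7.37, 4.70 and 4.83 CPM (-2.90 ± 0.24) and Tex261 at 33.5, 34.5 and 33.0 against 41.1, 41.3 and 41.2 CPM (-0.31 ± 0.05). The sources used here do not say whether reads were assigned by strand, so the overlapping pairs may share reads with the gate genes.

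Long genes were called higher more often. Over 5 equal groups of genes by span on the genome, 1.65% of the shortest (median 3.90 kb) and 12.7% of the longest (median 141 kb) were higher in set A, and 4.48% and 2.58% were lower. The median log2 ratio of the longest group was 0.049 at P6, 0.15 at P8 and 0.042 at P11. Nuclear RNAs moved with this. Malat1, a nuclear RNA, had a median level of 20525, 15332 and 20422 UMIs per 1000000 in set A cells and 19983, 8821 and 18456 in set B cells. Of 4 listed nuclear RNAs 3 were higher, against 3.99% of all genes tested. The Malat1 call was lost without P6 (0.24). In the fit over 3 libraries the longest group's median was 0.054. With sets matched on Malat1 by cell, a choice made after seeing the data, it was 0.021. The matched sets gave 452 higher and 283 lower genes, of which 426 and 241 were among those reported. Of the 2790 longest genes 274 were higher and 98 lower with matched sets, against 355 and 72 before matching. Of the 2791 shortest, 41 were higher and 68 lower with matched sets. With matched sets Filip1l was at 1.75 and Maged1 at -0.61. Of the 545 higher genes with 1 direction in all libraries, 400 (73.4%) lay farthest from 0 at P8, and so did 156 of 348 lower genes (44.8%). At P8 the sets' Malat1 levels were farthest apart, and both sets also had their fewest cells there, 685 and 987. The part of counting error in this was not tested. The part of nuclear RNA in the differences was not tested beyond this matching.

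**Figure D5:**
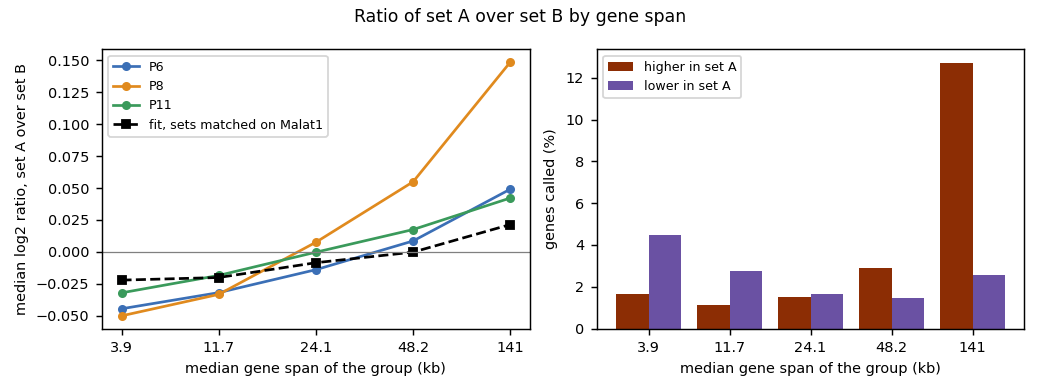
Genes in 5 equal groups by span, labelled by the group's median span in kb (x axis). Left, the median log2 ratio of set A over set B in each library and in the fit with sets matched on Malat1, which lies nearer 0 for the longest group than any library does; right, the share of genes called (y axis, %), highest at 12.7% for higher calls in the longest group.

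Markers of other retinal cells were read in both sets, beside the 3.99% of all genes tested that were higher in set A and the 2.59% that were lower. The rod list summed to 11.2, 18.8 and 4.78 CPM in set A and 7.73, 3.34 and 8.73 CPM in set B, with 0 of its 6 tested genes called. All 6 had a fitted ratio above 0, and their median log2 ratio was 0.52 at P6, 3.02 at P8 and -0.85 at P11. Some single markers of rods, Müller glia, bipolar and ganglion cells were scarce, with Gnat1 at 0 to 0.433 CPM, Rlbp1 at 0 to 1.29 CPM, Grm6 at 0.2999 to 0.752 CPM and Pou4f2 at 0.0520 to 0.900 CPM over the 6 sums. Other members were not. The summed bipolar list stood at 281, 103 and 127 CPM in set A and 224, 87.2 and 115 CPM in set B. Prkca of that list stood at 131, 54.7 and 57.5 against 94.1, 38.8 and 41.4 CPM. The summed Müller glia list stood at 222, 213 and 301 against 204, 190 and 292 CPM. The summed amacrine list, made up mostly of Npy, stood at 9389, 11966 and 6562 CPM in set A and 8215, 10247 and 6332 CPM in set B, and 3 of its 6 tested genes were higher. The summed ganglion list stood at 2178, 2461 and 1472 against 1961, 2160 and 1328 CPM, with Nefl higher (0.47 ± 0.03) and Sncg (-0.35 ± 0.03), Slc17a6 and Thy1 lower. Slc17a6 was slightly higher in set A at P8 (25.4 against 23.9 CPM), and its call was lost without P6 (-0.12). Thy1 was at 4.23 CPM in set B at P11 and at 0.0737 to 0.675 CPM in the other 5 sums, and its call was lost without P11 (-0.32). At P11, 6 set B cells with 29929 to 45452 UMIs each held 108 of the 127 Thy1 UMIs and 96 of the 99 UMIs of Tac1, a neuropeptide gene whose call was also lost without P11 (-0.36). Of the immediate early genes, known to be induced by cell activity and by handling, 0 of 9 were higher and 2 were lower, against 3.99% and 2.59% of all genes tested. The lower ones were Jun at 5.005, 16.7 and 14.0 against 11.1, 29.1 and 19.7 CPM (-0.73 ± 0.09) and Jund (-0.16 ± 0.04). The Jund call was lost without P6 (-0.17) or P8 (-0.10). The part of other cells and of handling in the differences was not tested.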

How the data were processed

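Single-cell RNA was measured in 3 libraries (P6, P8, P11) of sorted horizontal cells, with totals of 87939202, 65546590 and 105561999 UMIs over 9896, 4635 and 5517 barcodes. The authors deposited raw UMI counts for every barcode. Cell Ranger 7.1.0 and the build mm10 are named in the submitters' processing notes. The sources used here do not give the annotation release, intron counting or strand use. Pairs of libraries shared 8 to 15 barcodes. The members and gene lists were chosen with earlier results of these data known.

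Counts of set A and set B cells were summed per library (13572799 to 38465653 UMIs a sum) and fitted with edgeR 4.0.16 (TMM scaling, default expression filter, library as block, quasi-likelihood test), after a test on simulated data. The 4 gate genes were left out of the calls. Doublets were scored with Scrublet (scanpy 1.11.5) and kept; removing the highest scores was an alternative. The 78 features that share a symbol were not named. Named genes were the 15 highest and 15 lowest log2 ratios among genes with an adjusted p under 0.05, 1 direction in 3 libraries and a mean of at least 20 CPM, without mitochondrial, ribosomal, hemoglobin, X-inactivation, Y-linked and provisional symbols, plus up to 4 called members per list and the tested dorsal and ventral genes. Other names were chosen after their values were seen, and some genes are not reported here. The lists held markers of 13 cell classes, quality genes and pathways; those not described with the results are given among the other observations. Gene positions came from GENCODE of the same build (32235 of 32285 features matched). Alternatives changed scaling, tool, filter, gate, depth, doublets and libraries, and 3 were added after seeing the data.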

Additional observations from a re-analysis of the deposited data

Results flagged for a closer look

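Pcp4, a calmodulin-binding protein gene, had ratios on opposite sides of 0 at different ages, each beyond its exact 95% counting interval at P6 and P11. Its log2 ratio of set A over set B was 0.80 at P6, -2.49 at P8 and -2.59 at P11. At P8, 1 set B cell held 58 of the 79 UMIs, and at P11 the 6 cells rich in Thy1 and Tac1 held 715 of 778. In set A at P11, 5 cells held 119 of the 166 UMIs. The interval covers counting error only and not the gathering of UMIs in few cells. The difference between ages was not tested.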

How the results depend on the processing

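Of 556 higher and 361 lower genes, counts stayed within 1.5 times of these under the other alternatives, with these exceptions. DESeq2 called 307 and 148 (306 and 147 among the reported), thinning cells to 3000 UMIs before summing 356 and 149, and leaving out 1 library 271 to 753 higher and 129 to 463 lower, with the lowest counts (271 and 129) without P6. With no filter on low counts 682 genes were lower. Gating on Vax2 alone gave 166 lower and gating on Rassf8, Shox2 and Siah3 alone 596 lower, both chosen after seeing the data. Without the replicate block, which leaves the change over ages in the spread, edgeR called 1 gene higher (Tigar) and 0 lower, against 67 and 17 at an unadjusted p under 0.05. Of 99 called named genes, 59 kept direction and call under every alternative except the one without the block, and none changed sign. Cells gated after thinning to 5000 UMIs gave shares of 15.9%, 10.5% and 8.79% for set B and 34.1% for set A at P11, and asking for all 3 horizontal cell genes gave 30.2% for set B at P6. Gating after thinning to 5000 UMIs called 548 genes higher and 380 lower.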

Other observations

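The remaining lists are read against the 3.99% of all genes tested that were higher in set A and the 2.59% that were lower. Of 15 tested horizontal cell fate factors 2 were higher in set A and 1 was lower, Tfap2a and Meis2 (3.54, 2.21 and 0.910 against 0.895, 0.0470 and 0.333 CPM) higher and Sox4 (-0.22 ± 0.05) lower. Meis2 codes for a homeodomain cofactor, and its call was lost without P6 (2.64). The gene reached the level of the filter on low counts in every set A sum but in set B at P6 only. Its call therefore supports nothing about the list. Its UMIs lay in 28 of 1562, 12 of 685 and 14 of 1786 set A cells, and in 15, 1 and 7 set B cells. In set A, 5 cells held 30 of the 63 UMIs at P6, 22 of the 30 at P8 and 26 of the 35 at P11. Of 8 tested neuropeptide and receptor genes 3 were higher and 1 lower. Npy stood at 7482, 10298 and 4635 CPM in set A and 6226, 8465 and 4352 CPM in set B (0.20 ± 0.04), and Oprm1, the mu opioid receptor gene, at 18.6, 13.8 and 17.7 against 9.99, 10.7 and 13.8 CPM (0.52 ± 0.10). Without P6 the calls of Npy (0.17) and Oprm1 (0.35) were lost. Of 16 glycolysis genes 3 were higher and 1 lower, among them Aldoc at 44.0, 116 and 150 against 36.8, 80.3 and 119 CPM (0.36 ± 0.04). Dkk3 (0.54 ± 0.06) was the 1 higher gene of 14 tested in Wnt signalling, Thrb (0.26 ± 0.05) the 1 of 7 in thyroid hormone handling, and Epha8 (-0.20 ± 0.04) the 1 lower gene of 7 Eph receptors and ephrins, the calls of Thrb (0.29) and Epha8 (-0.19) being lost without P6. Of 9 tested retinoic acid genes 0 passed in edgeR and 0 in DESeq2, with 2 at an unadjusted p under 0.05, and of 6 heat shock genes 1 was lower.

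Among markers of other cells, 2 of 6 tested bipolar genes (Prkca and Lrtm1), 1 of 7 Müller glia genes (Dkk3), 1 of 2 microglia genes (P2ry12) and the 1 tested pericyte gene (Rgs5, 5.12, 5.30 and 3.12 against 3.40, 2.63 and 1.33 CPM) were higher, and 0 of 6 rod, 0 of 1 cone, 0 of 2 progenitor and 0 of 1 astrocyte genes were called by edgeR or DESeq2, with 1 rod gene at an unadjusted p under 0.05. The P2ry12 call was lost without P6 (0.57) or P8 (0.43), and the Lrtm1 call without P6 (0.20). Summed markers of endothelial cells, pigment epithelium and red cells lay at 0.179 to 3.32 CPM in every sum, with none tested. Of 6 sex-linked genes 1 was higher (0.29 ± 0.07).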
